A study of Homo sapiens with 12 samples.

Results

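The ERBB receptors and the EGF family ligands were followed through the development of lapatinib resistance in BT474 cells. The genes were chosen by symbol and number 10 of the 26485 genes in the table: the receptors EGFR, ERBB3 and ERBB4 and the ligands NRG3, AREG, EREG, HBEGF, TGFA, BTC and EGF. BT474 is an established HER2-positive breast cancer cell line with an amplified ERBB2 gene, and lapatinib is a small molecule that inhibits the kinases of HER2 and EGFR. The 4 groups hold 3 mRNA libraries each: Control (day 0), DTP (day 9, drug-tolerant persisters), DTEP (month 6, persisters that have expanded) and LR (month 9, titled Resistant, long-term resistant cells). All groups are the same line in RPMI medium with serum, and the 3 later groups were kept in 1 µM lapatinib. The labels give that treatment for the Control libraries too, which were read as untreated from their titles. The study describes parallel plates in one place and technical replicates in another, so n counts libraries and p-values measure a spread between libraries that may be technical. In these bulk samples, fewer cells expressing a gene and less RNA per cell cannot be told apart.

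ERBB receptors are tyrosine kinases of the cell surface that signal as dimers. EGFR and ERBB4 bind ligand and have active kinases, HER2 (ERBB2) has no known ligand and is the preferred partner of the others, and ERBB3 binds ligand but has little kinase activity of its own and passes the signal to PI3 kinase when it is paired with HER2. The ligands are made as membrane proteins and released by proteases. EGF, TGFA and AREG bind EGFR, HBEGF, BTC and EREG bind EGFR and ERBB4, and the neuregulins bind ERBB3 or ERBB4, with NRG3 known as a ligand of ERBB4.

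The promoters of the 5 genes called in LR against Control are printed so that their composition can be seen beside their changes. Each is the RefSeq sequence of GRCh38.p14 from 250 bases before to 50 bases after the annotated start, 5′ to 3′ on the strand of the gene. The reference table gave 12 such windows for 9 of the 10 genes, all but ERBB3. EGFR, NRG3 and TGFA had a second window at another annotated start, and the window of the more upstream start is printed. Capitals mark matches, on either strand, to the searched motifs: AP-2 (GCCNNNGGC), the GC box (GGGCGG), the TATA box (TATAAA), the cyclic AMP response element CRE (TGACGTCA), AP-1 (TGANTCA) and a forkhead motif (TGTTTAC). The windows are EGFR at chr7:55018767-55019066 (plus strand), ERBB4 at chr2:212538753-212539052 (minus strand), NRG3 at chr10:81874944-81875243 (plus strand), AREG at chr4:74444886-74445185 (plus strand) and TGFA at chr2:70553777-70554076 (minus strand).
EGFR: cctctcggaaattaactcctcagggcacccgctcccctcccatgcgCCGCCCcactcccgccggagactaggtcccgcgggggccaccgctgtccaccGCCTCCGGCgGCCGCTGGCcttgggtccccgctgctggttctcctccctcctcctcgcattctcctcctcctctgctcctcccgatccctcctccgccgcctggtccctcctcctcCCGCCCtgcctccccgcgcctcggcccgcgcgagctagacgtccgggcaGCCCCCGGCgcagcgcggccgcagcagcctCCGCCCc
ERBB4: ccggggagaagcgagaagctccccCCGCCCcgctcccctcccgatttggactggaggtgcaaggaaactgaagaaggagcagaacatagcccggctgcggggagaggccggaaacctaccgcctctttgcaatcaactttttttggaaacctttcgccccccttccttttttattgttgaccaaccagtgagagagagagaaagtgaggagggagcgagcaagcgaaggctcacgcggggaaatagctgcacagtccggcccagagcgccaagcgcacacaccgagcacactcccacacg
NRG3: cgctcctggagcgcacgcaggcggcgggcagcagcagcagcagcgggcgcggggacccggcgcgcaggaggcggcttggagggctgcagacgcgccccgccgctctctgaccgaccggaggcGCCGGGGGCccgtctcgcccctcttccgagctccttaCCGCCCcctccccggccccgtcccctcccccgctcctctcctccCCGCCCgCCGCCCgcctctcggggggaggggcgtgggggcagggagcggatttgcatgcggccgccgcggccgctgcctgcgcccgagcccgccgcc
AREG: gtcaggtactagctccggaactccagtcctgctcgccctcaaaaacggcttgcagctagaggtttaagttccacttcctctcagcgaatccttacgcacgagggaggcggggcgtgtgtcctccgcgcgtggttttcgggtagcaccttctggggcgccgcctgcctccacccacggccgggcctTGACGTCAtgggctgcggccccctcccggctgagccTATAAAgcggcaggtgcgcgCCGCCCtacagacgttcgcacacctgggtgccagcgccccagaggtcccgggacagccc
TGFA: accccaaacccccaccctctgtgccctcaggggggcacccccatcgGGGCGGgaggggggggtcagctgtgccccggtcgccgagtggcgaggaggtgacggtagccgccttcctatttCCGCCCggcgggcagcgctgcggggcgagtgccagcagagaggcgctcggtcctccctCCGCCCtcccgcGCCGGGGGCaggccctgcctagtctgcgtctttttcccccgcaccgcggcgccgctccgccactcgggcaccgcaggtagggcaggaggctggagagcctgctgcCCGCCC

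The printed EGFR window held 3 AP-2 matches and 3 GC boxes and no TATA box, with 75.3% G and C. The printed NRG3 window was richer still, at 81.0%, and held 1 AP-2 match and 3 GC boxes. The printed TGFA window had 1 AP-2 match and 4 GC boxes, whereas ERBB4 had a single GC box far from its start. The AREG window, unlike the other 4 printed, held a TATA box 29 bases and a CRE 65 bases before its start, with 1 GC box. The second EGFR window, at the more downstream start, held 2 TATA boxes and 2 AP-1 matches and no GC box, the second TGFA window held no match, and the second NRG3 window overlapped the first. Among the 35116 promoter windows of this length in the reference table, 23.2% held the AP-2 letters, 45.0% a GC box, 11.5% a TATA box, 1.85% the CRE letters, 7.71% an AP-1 match and 3.42% the forkhead letters. These matches describe the letters only.

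Whole reads could be recovered from the deposited values, and depth was 16383363 to 25030482 assigned reads per library. Levels are normalised read counts, that is reads scaled to a common total, on which 1 read was worth 0.0412 to 0.0576 and a library without a read allowed a level of up to 3 reads, or 0.124 to 0.173, covering counting error only. DTEP replicate 3 stood closer to the LR libraries than the others of its group did, with r of 0.988 to 0.994 over all genes on log2(value + 1), against 0.965 to 0.974 for DTEP replicate 1 and 0.975 to 0.983 for DTEP replicate 2. Calls of members that were lost without it are given both ways below. Folds without it are given for some members only. The 6 luminal epithelial markers (KRT8, KRT18, KRT19, EPCAM, CDH1, GATA3) were all detected, and their sum was 4164 to 4429.9 for Control, 4961 to 6164 for DTP, 2706 to 4068 for DTEP and 2121 to 3553 for LR. Of the 6 fibroblast or mesenchymal markers, 5 stayed below 1 in every library of each group and THY1 was at 0 throughout, with sums of 48.1 to 61.7 before DTEP and 79.9 to 130.4 in DTEP and LR. The 5 leukocyte markers summed to at most 4.84, in DTP, with CD3E at 0 and 4 of the 5 below 1 in every DTP library. The 3 endothelial markers summed to 8.14 to 8.85 in Control, 2.19 to 2.61 in DTP and at most 0.431 in DTEP and LR. Of these 3, 2 were below 1 in every Control library, so the Control sum came mostly from the remaining gene. In DTP 2 of the 3 were also below 1 in every library. The part of these shifts in the changes below was not tested.

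Changes were tested with limma on log2(value + 1), so that the log2 change of a weakly expressed gene is smaller than its fold. Calls required a log2 change beyond 2 in either direction together with an adjusted p under 0.05, and "rose" or "fell" is used below for genes past the adjusted p alone. Of the 10 genes, 9 had 3 or more libraries with a value of 1 or more and were tested, and EREG did not. HBEGF met this through the DTP libraries alone, BTC through the Control libraries alone and EGF through the Control libraries and 1 DTEP library, so these had to differ between groups and their being tested is no support for a change. The same limit holds for other genes named below that reached 1 in some groups only, such as TIMP3, CBLC, SRC and EPGN. The comparisons share libraries, so their values are given side by side and are not independent.

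In DTP against Control, EGFR was the only family member called, lower, where 3.9% of the 13794 genes tested were called lower and 1.01% higher. By the adjusted p alone, EGFR, TGFA, EGF and BTC fell (28.8% of all genes did) and HBEGF rose (25.2%). In DTEP against DTP, ERBB4 and NRG3 were called higher, with 8.13% of all genes called higher and 7.02% lower. EGFR, AREG, TGFA and HBEGF fell in the same comparison, against 32.6% of all genes past the adjusted p downward and 35.7% upward.

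In LR against DTEP, 0 members were called by limma, by edgeR or by DESeq2, and 0 were past the adjusted p. ERBB3 and HBEGF were the 2 members with an unadjusted p below 0.05, both higher. Of all genes, 0.225% were called higher and 0.457% lower, and 3.04% and 4.31% were past the adjusted p in those directions. Without DTEP replicate 3, ERBB3 and NRG3 passed the adjusted p as well.

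Against Control, ERBB4 and NRG3 were called higher and EGFR, AREG and TGFA lower in DTEP, where 4.43% of all genes were called higher and 6.2% lower. In LR against Control those 5 genes were again called, beside 5.03% of all genes called higher and 7.8% lower. By the adjusted p alone ERBB3 rose and EGF and BTC fell besides in both comparisons. The share of all genes past the adjusted p was 29.5% upward and 28.7% downward in DTEP, and 30.2% upward and 32.6% downward in LR.

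**Figure D1:**
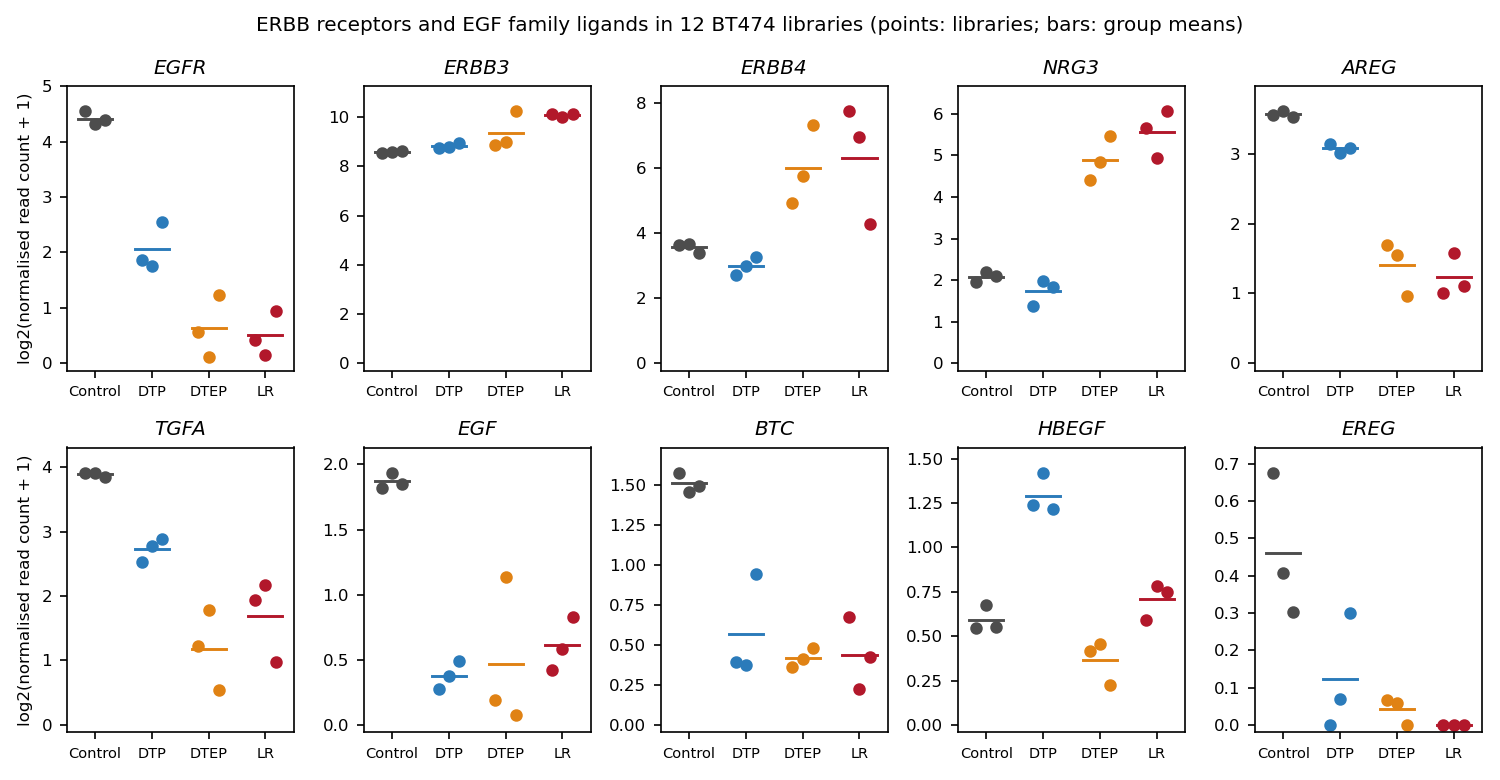
Normalised read counts of the 10 genes on log2(value + 1), 1 panel per gene with its own axis from 0, with a point for each library in replicate order and a bar for the mean of the group. EGFR, AREG, TGFA, EGF and BTC are highest in Control, ERBB4 and NRG3 are highest in DTEP and LR with a wide spread, and HBEGF is highest in DTP. EREG is at or near 0 outside Control except in DTP replicate 3 (0.230), which is level with Control replicate 3 (0.233).

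**Figure D2:**
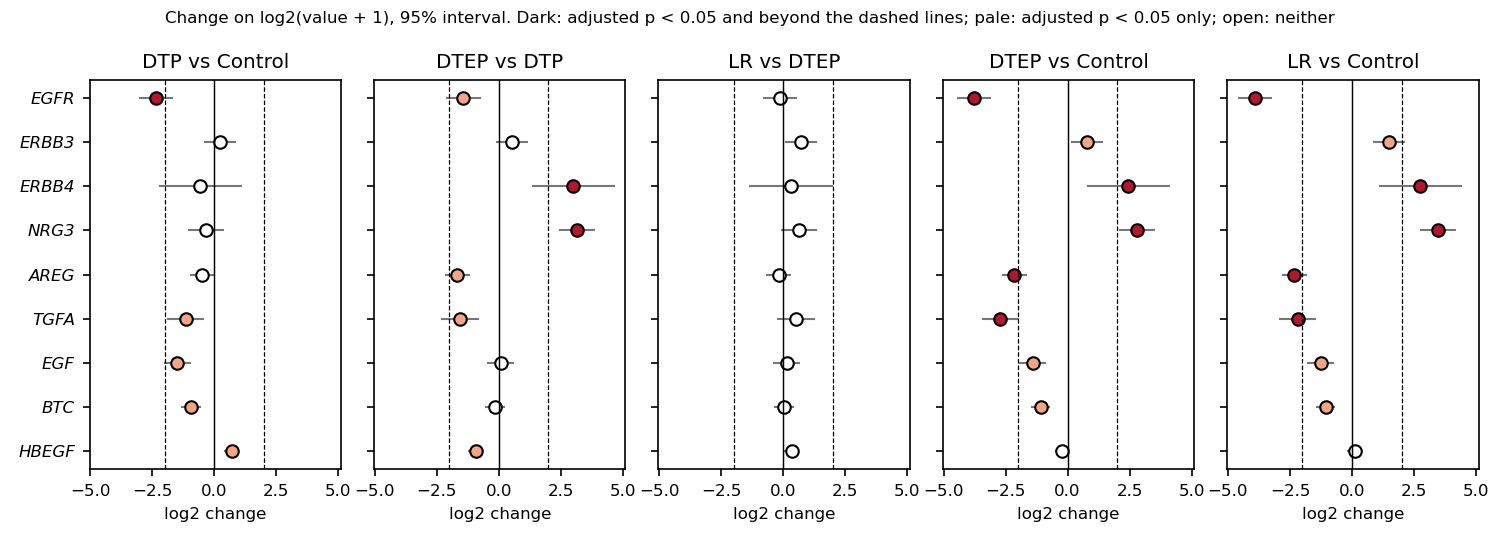
Change of the 9 tested genes in each of the 5 comparisons, on log2(value + 1), with 95% intervals and dashed lines at -2 and 2. Dark points are called, pale points pass the adjusted p alone and open points pass neither, and the LR vs DTEP panel holds open points throughout.

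Among the receptors, EGFR (chromosome 7, 55019017 to 55211628, plus strand, GRCh38.p14) had a level of 22.4, 18.9 and 19.8 in the Control libraries. The DTP libraries had 2.66, 2.37 and 4.84, the DTEP libraries 0.478, 0.0824 and 1.35, and the LR libraries 0.338, 0.111 and 0.921. Every Control library was above every DTP library and every DTP library above every DTEP and LR library, while DTEP and LR overlapped. These last values rest on 2 to 24 reads per library.

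The EGFR mean was thus 20.4 ± 1.80 (SD, n = 3) for Control and 3.29 ± 1.35 for DTP, and only 0.636 ± 0.647 for DTEP and 0.456 ± 0.418 for LR. It was 6.20-fold lower in DTP than in Control (log2 change -2.36, SE 0.30, adjusted p 6.29e-05) and 5.17-fold lower again in DTEP than in DTP (-1.42, SE 0.30, adjusted p 0.00115), or 11.7-fold without DTEP replicate 3. In LR the level was 44.7-fold below Control (-3.91, SE 0.30, adjusted p 3.66e-07), or 32.4-fold without LR replicate 2 and 90.9-fold without LR replicate 3. The interval of the LR minus DTEP difference, -0.79 to 0.52, held changes in both directions. Over all genes, 2.50% had a lower log2 change than EGFR in DTP against Control and 2.11% in LR against Control.

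ERBB3 (chromosome 12, 56080108 to 56103505, plus strand) was the most abundant family member after ERBB2. Its level was 377, 378 and 396 in the Control libraries and 433, 443 and 488 in the DTP libraries. The DTEP libraries had 471, 511 and 1211 and the LR libraries 1113, 1028 and 1131. The LR libraries lay close together and far above Control and DTP, and DTEP replicate 3 lay above all of them while the other DTEP libraries stayed near DTP.

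In LR, ERBB3 was 2.84-fold above Control (log2 change 1.50, SE 0.28, adjusted p 0.000505), with the groups apart. In DTEP against Control the change was 0.79 (adjusted p 0.0279). This value was 0.35 without DTEP replicate 3 (adjusted p 0.0126), and it missed the threshold when any 1 Control library was left out (adjusted p 0.0587 to 0.0698) or when the fit held only the 6 libraries compared (0.102). LR against DTEP gave 0.72 (95% interval 0.11 to 1.32, adjusted p 0.0981), which became 1.15 without DTEP replicate 3 (adjusted p 3.48e-05). DTP against Control gave 0.24 (adjusted p 0.485), or 0.0125 as the adjusted p in the fit of those 6 libraries alone. DTEP against DTP gave 0.55 (adjusted p 0.099), or 0.11 without DTEP replicate 3 (adjusted p 0.366).

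ERBB4 (chromosome 2, 211375717 to 212538802, minus strand), the other neuregulin receptor, was low before DTEP. Control libraries had 11.5, 11.7 and 9.50 and DTP libraries 5.58, 6.96 and 8.70. DTEP libraries had 29.4, 53.3 and 160.5, and LR libraries 213.6, 122.7 and 18.3. All DTEP and LR libraries were above all earlier ones, but the spread inside both later groups was wide, and LR replicate 3 was below every DTEP library.

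The ERBB4 mean was 11.4-fold higher in DTEP than in DTP (log2 change 3.01, SE 0.75, adjusted p 0.00344), or 5.84-fold without DTEP replicate 3 (2.35, adjusted p 0.0138). Against Control it was 7.45-fold higher in DTEP (2.44, adjusted p 0.0144) and 10.9-fold higher in LR (2.76, adjusted p 0.00668). The DTEP against Control call was lost without DTEP replicate 3 (1.78, adjusted p 0.0537, 3.80-fold), and LR against Control ranged from 2.05 (6.48-fold) without LR replicate 1 to 3.78 without LR replicate 3. LR and DTEP differed by 0.31 with an interval of -1.32 to 1.95. In DTP against Control all 3 DTP libraries were below all Control libraries, with a change of -0.57 (adjusted p 0.548, or 0.0167 in the fit of the 6 libraries alone).

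ERBB2, no member of the set but the partner of its receptors, had 6389.8, 6356 and 6833 in Control and 9136, 8583 and 7917 in DTP. DTEP libraries had 2103, 1244 and 1534 and LR libraries 1555, 1897 and 1870.4. ERBB2 fell in DTEP against DTP (log2 change -2.42, adjusted p 1.86e-06), the step at which ERBB4 and NRG3 were called higher. Its counts are uncertain where genes of the amplicon (PGAP3, MIEN1) overlap it, since reads were assigned without regard to strand.

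To compare levels between receptors, values were divided by the length of the MANE Select transcript. Of the summed receptor value per kb, ERBB2 made up 95.3% ± 0.0692 for Control (n = 3) and 95.8% ± 0.557 for DTP, then 72.6% ± 12.4 for DTEP and 65.5% ± 3.73 for LR. ERBB3 made up 4.55% ± 0.0557, 4.16% ± 0.541, 26.1% ± 11.5 and 32.8% ± 2.77 in that order. The ERBB3 share was higher in every DTEP and LR library (15.3% or more) than in any Control or DTP library (4.76% or less).

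The other receptors stayed minor components of this sum. ERBB4 averaged 0.0601% in Control and 0.0303% in DTP, then 1.33% in DTEP and 1.69% in LR, where its share ranged from 0.247% to 3.17%. EGFR averaged 0.137% in Control and 0.0173%, 0.0117% and 0.00770% in DTP, DTEP and LR. Thus EGFR was above ERBB4 in every Control library per kb and below it in every DTP, DTEP and LR library.

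ERBB2 was 20.9, 20.7 and 21.2 times ERBB3 per kb in the Control libraries and 26.0, 23.9 and 20.0 times in DTP. The ratio was 5.50, 3.00 and 1.56 in DTEP and 1.72, 2.28 and 2.04 in LR. The summed receptor value per kb itself was 1503 ± 60.2 for Control and 1957 ± 129 for DTP, against 494 ± 109 for DTEP and 593 ± 31.4 for LR. The shares are relative to a total that was lower in DTEP and LR, and they were not tested beyond the comparisons above. With lengths of all exons merged, chosen as an alternative after the values were seen, ERBB3 made up 4.91%, 4.50%, 27.1% and 34.0%.

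**Figure D3:**
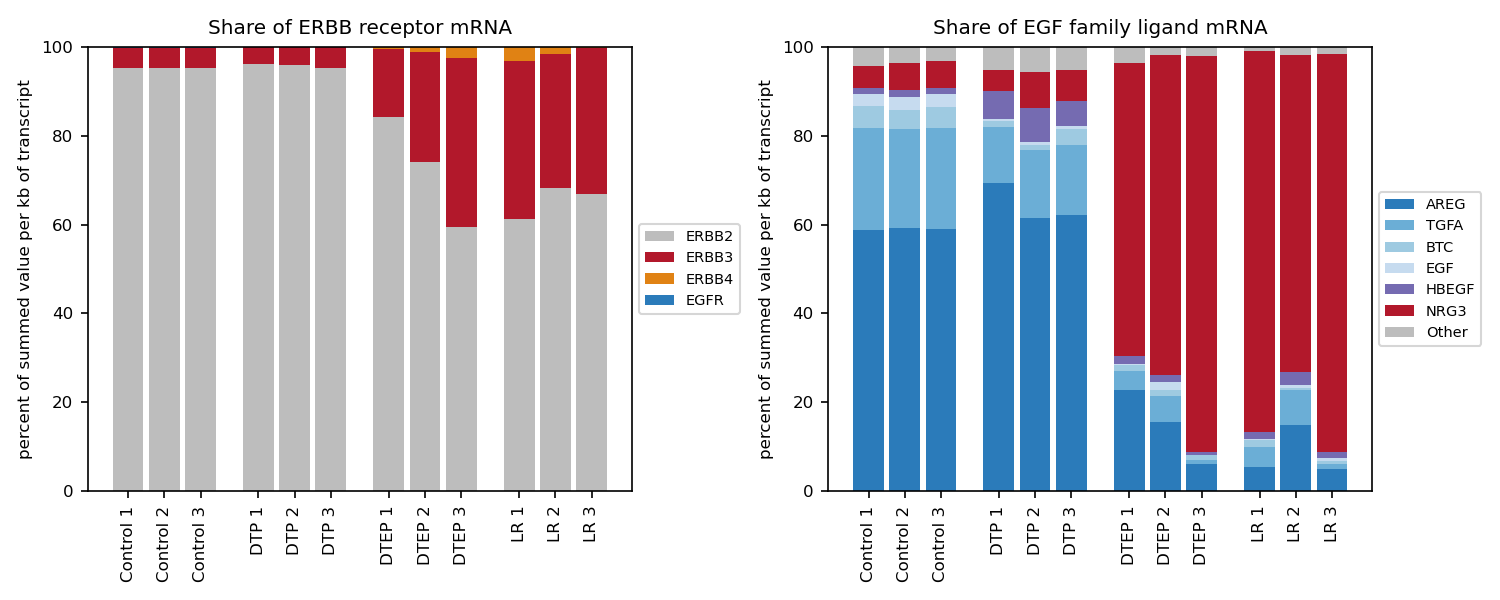
Shares of the summed value per kb of transcript in each library, stacked to 100%, for the 4 receptors (left) and for the 10 ligands measured (right, where Other is EREG, EPGN, NRG2 and NRG4). ERBB3 takes 15.3% or more in DTEP and LR against 4.76% or less before, EGFR is too small to see, and NRG3 replaces AREG as the largest ligand share in all 6 DTEP and LR libraries.

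Of the ligands, NRG3 (chromosome 10, 81875194 to 82987179, plus strand) was the only tested one that rose in DTEP and LR against Control. Control libraries had 2.85, 3.59 and 3.31 and DTP libraries 1.62, 2.91 and 2.59. DTEP libraries had 20.0, 27.7 and 42.9 and LR libraries 49.4, 29.5 and 65.7. Control and DTP overlapped, DTEP and LR overlapped, and the lowest library of the later pair was well above the highest of the earlier one.

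The NRG3 mean was 12.7-fold higher in DTEP than in DTP (log2 change 3.16, SE 0.31, adjusted p 3.04e-06). Against Control it was 9.30-fold higher in DTEP (2.81, adjusted p 1.07e-05) and 14.8-fold higher in LR (3.47, adjusted p 1.52e-06). It was called under every alternative run in these 3 comparisons. LR minus DTEP was 0.65 with an interval of -0.04 to 1.34 (adjusted p 0.161), and 0.93 without DTEP replicate 3 (adjusted p 0.0251). The antisense gene NRG3-AS1 was listed at 0 in every library.

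Among the other neuregulins, NRG2 had at most 5 reads in any library and NRG4 had a single read in each of 2 DTP libraries. NRG1, named after its values were seen, was listed with 0 reads in all 12 libraries.

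The tested ligands that bind EGFR fell in DTEP and LR against Control, except HBEGF, which passed the adjusted p in neither comparison. AREG (chromosome 4, 74445136 to 74455005, plus strand) had 10.8, 11.2 and 10.5 in Control and 7.78, 7.06 and 7.49 in DTP. DTEP libraries had 2.25, 1.94 and 0.954 and LR libraries 1.01, 1.99 and 1.16. Control lay above DTP and DTP above both later groups without overlap, and DTEP and LR overlapped.

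For AREG the step from Control to DTP was 1.45-fold downward (log2 change -0.49, SE 0.21, adjusted p 0.0700, or 0.00268 in the fit of those 6 libraries alone). The step from DTP to DTEP was larger, at 4.34-fold lower (-1.67, SE 0.21, adjusted p 2.14e-05). In LR the mean was 7.78-fold below Control (-2.33, adjusted p 1.49e-06). In DTEP it was 6.31-fold below Control (-2.16, adjusted p 3.46e-06), or -1.94 and no longer beyond 2 without DTEP replicate 3. AREG has carried a near-identical second copy in older annotations, which makes its counts less certain than those of the other ligands.

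TGFA (chromosome 2, 70447284 to 70553826, minus strand) had 14.1, 14.0 and 13.4 in Control and 4.75, 5.87 and 6.39 in DTP. DTEP libraries had 1.34, 2.43 and 0.449 and LR libraries 2.83, 3.49 and 0.969. As for AREG, Control, DTP and the later pair of groups were apart, but for TGFA the larger drop on the linear scale came first.

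TGFA fell 2.44-fold in DTP (log2 change -1.16, SE 0.33, adjusted p 0.0108, or 0.0598 with a pseudocount of 0.1) and 4.03-fold more in DTEP (-1.55, adjusted p 0.00120). It was 9.83-fold below Control in DTEP (-2.71, adjusted p 2.13e-05). Without DTEP replicate 2 these last folds were 6.34 and 15.5. In LR it was 5.69-fold below Control (-2.20, adjusted p 0.000103), or -1.84 without LR replicate 3, the lowest LR library. LR minus DTEP was 0.51 with an interval of -0.20 to 1.23.

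EGF (chromosome 4, 109912883 to 110013766, plus strand), the ligand that gives the family its name, was low throughout. Control libraries had 2.53, 2.83 and 2.61, DTP libraries 0.209, 0.296 and 0.403, DTEP libraries 0.144, 1.19 and 0.0561 and LR libraries 0.338, 0.498 and 0.775. DTEP replicate 2 stood out with 29 reads against 3 and 1 in the others, and it remained below Control.

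EGF was 8.77-fold lower in DTP than in Control (log2 change -1.49, SE 0.23, adjusted p 0.000247). It was 5.71-fold lower in DTEP (-1.40, adjusted p 0.000245), or 26.6-fold without DTEP replicate 2, and 4.94-fold lower in LR (-1.26, adjusted p 0.000492). None of these passed a log2 change of 2 in limma. Each did so in edgeR and DESeq2 on the recovered reads, where the constant of 1 is not added (-3.05 and -3.08 in DTP). Neither DTEP against DTP nor LR against DTEP passed the adjusted p, and LR against DTP was not tested.

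BTC (chromosome 4, 74744759 to 74794523, minus strand), which binds EGFR and ERBB4, had 1.98, 1.74 and 1.82 in Control. DTP libraries had 0.313, 0.296 and 0.921, DTEP libraries 0.287, 0.330 and 0.393 and LR libraries 0.591, 0.166 and 0.339, so the 3 later groups overlapped below Control. Its log2 change from Control was -0.94 in DTP (SE 0.17, adjusted p 0.000584), -1.09 in DTEP (adjusted p 0.000126) and -1.07 in LR (adjusted p 0.000128). The means were 3.62-fold (6.06-fold without DTP replicate 3), 5.48-fold and 5.05-fold below Control. In DTEP and LR against Control BTC was called by edgeR (-2.41 and -2.19), by DESeq2 (-2.52 and -2.33) and with a pseudocount of 0.1 (-2.16 and -2.17).

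HBEGF (chromosome 5, 140332843 to 140346603, minus strand), also a ligand of EGFR and ERBB4, moved the other way in DTP. Control libraries had 0.460, 0.598 and 0.466 and DTP libraries 1.36, 1.68 and 1.32. DTEP libraries had 0.335, 0.371 and 0.168 and LR libraries 0.507, 0.719 and 0.678. DTP was apart from all other groups, and LR lay above DTEP and overlapped Control.

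The HBEGF mean rose 2.86-fold in DTP (log2 change 0.70, SE 0.12, adjusted p 0.000452) and fell 4.99-fold from DTP to DTEP (-0.93, SE 0.12, adjusted p 2.43e-05). These rest on 83 reads over the DTP libraries, 31 over Control and 19 over DTEP. LR minus DTEP was 0.34 (interval 0.08 to 0.60, adjusted p 0.0798), and LR minus Control 0.12 (interval -0.14 to 0.37). DTEP minus Control was -0.23 (adjusted p 0.122), with every DTEP library below every Control library.

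EREG (chromosome 4, 74365145 to 74388749, plus strand), not tested, had 13, 6 and 5 reads in Control, 0, 1 and 4 in DTP, 1, 1 and 0 in DTEP, and 0 in each LR library. The Control libraries were the highest, but Control replicate 3 (0.233) barely exceeded DTP replicate 3 (0.230). The LR libraries allow a level of up to 0.127 to 0.166 each. EREG lies with EPGN, AREG and BTC within 486 kb of chromosome 4 (74308470 to 74794523). The neighbour EPGN, which encodes epigen, ranged from 1.12 to 1.33 for Control and from 1.15 to 1.25 for DTP, and then from 0.453 to 0.718 for DTEP and from 0.332 to 0.775 for LR. EPGN fell in LR against Control (log2 change -0.60, adjusted p 0.00214), and DTP against Control gave -0.01 (adjusted p 0.949).

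Per kb of transcript, AREG was the largest ligand in Control with 59.0% ± 0.299 of the summed ligand value (n = 3), followed by TGFA with 22.6% ± 0.420 and NRG3 with 5.74% ± 0.613. In DTP the order began with AREG at 64.3% ± 4.38 and TGFA at 14.6% ± 1.71, and NRG3 (6.62% ± 1.80) and HBEGF (6.58% ± 0.973) did not differ beyond their spread. NRG3 then made up 75.8% in DTEP (66.0% to 89.2% over the libraries) and 82.3% ± 9.62 in LR, and AREG 14.9% ± 8.39 and 8.41% ± 5.62. NRG3 was at most 8.21% in any Control or DTP library and at least 66.0% in every later one.

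The summed ligand value per kb was 14.8 ± 0.460 for Control and 9.39 ± 0.348 for DTP, against 10.2 ± 2.33 for DTEP and 15.1 ± 4.20 for LR. The total in LR thus spanned that in Control while its make-up differed. With merged exon lengths NRG3 made up 5.36%, 6.27%, 74.5% and 81.1% in the order of the groups.

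**Figure D4:**
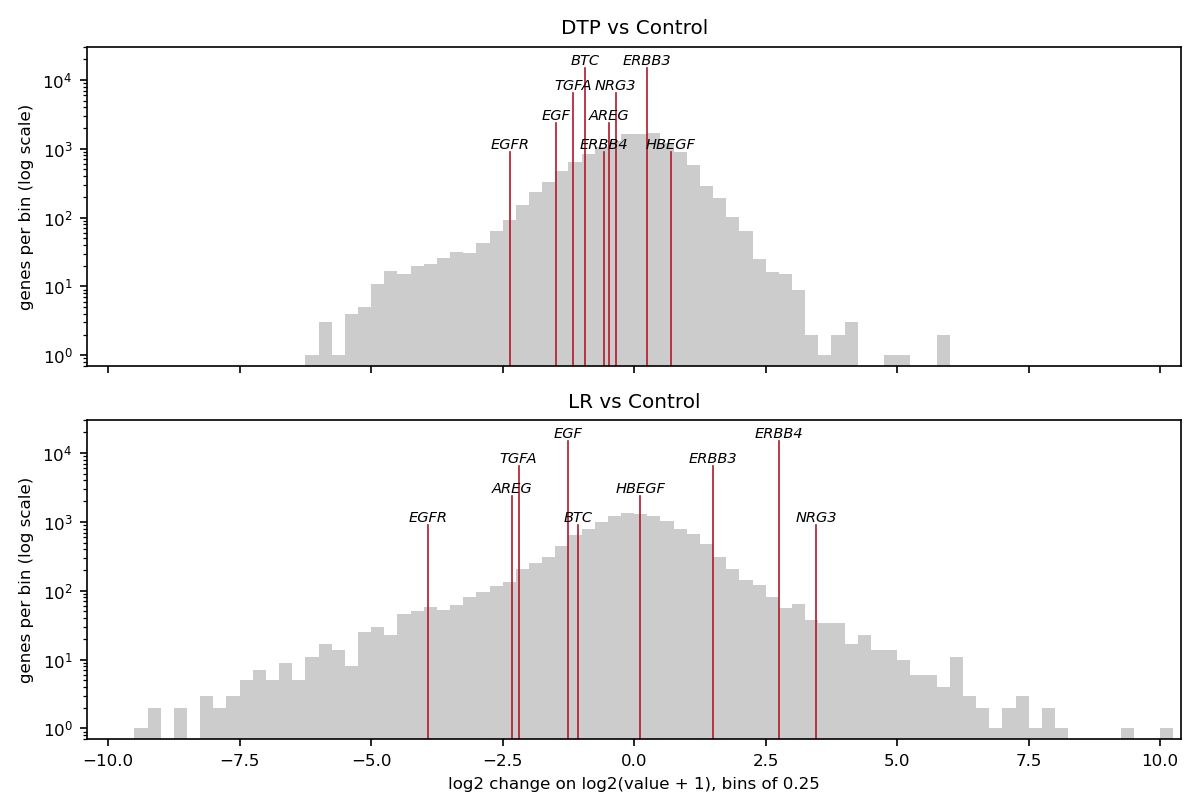
Distribution of log2 changes on log2(value + 1) over the 13794 genes tested, in bins of 0.25 with a logarithmic count axis, for DTP vs Control (top) and LR vs Control (bottom). Vertical lines mark the 9 tested family members, which lie mostly on the lower side in DTP and spread from EGFR at -3.91 to NRG3 at 3.47 in LR.

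The proteases and inhibitors that act on ligand release were followed as a list of 14 genes, 9 of them tested. TIMP3, an inhibitor of metalloproteases and of ADAM17, was called higher in DTP against Control, with a mean of 0.142 ± 0.159 in Control and 5.46 ± 0.302 in DTP (log2 change 2.51, adjusted p 0.00353). It averaged 5.45 ± 3.16 in DTEP and 5.13 ± 6.43 in LR, where libraries ranged from 1.16 to 12.5. ADAM10, a sheddase of EGF and BTC, fell from 158.8 ± 11.3 in Control to 67.0 ± 23.2 in DTP (-1.28, adjusted p 0.00130). It was called higher in DTEP against DTP at 286.7 ± 74.1 (2.10, adjusted p 1.56e-05) and was 356 ± 84.2 in LR.

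In that list, 3 genes were past the adjusted p upward and 3 downward in DTP against Control (25.2% and 28.8% of all genes), with a median log2 change of -0.01 (-0.01 over all genes). The counts were 5 and 1 in DTEP against DTP (35.7% and 32.6% of all genes), with a median of 0.50 against 0.08 over all genes. In LR against Control they were 5 and 1 (30.2% and 32.6% of all genes), with medians of 1.01 and -0.03, and 0 were called by limma, against 6 at an unadjusted p below 0.05 and 1 called by edgeR.

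Adaptors and kinases downstream of the receptors numbered 43, of which 41 were tested. In DTP against Control 0 were called by limma or edgeR, with 24 at an unadjusted p below 0.05, of which 18 were lower. By the adjusted p 17 of the 41 fell and 5 rose, where 28.8% of all genes fell and 25.2% rose, with a median of -0.23 against -0.01 over all genes. In DTEP against DTP 22 rose and 10 fell, where 35.7% of all genes rose and 32.6% fell, with a median of 0.47 against 0.08. Of the 41, 7 were called, 3 higher and 4 lower, where 8.13% of all genes were called higher and 7.02% lower. In DTEP against Control 9 rose and 12 fell (29.5% and 28.7% of all genes), with a median of -0.02 against 0.02. In LR against Control 14 rose and 10 fell (30.2% and 32.6% of all genes), with a median of 0.18 against -0.03.

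The called genes that were lower in DTEP than in DTP were the adaptors GRB10, GRB7 and SHC2 and the kinase SRC. GRB7, an adaptor that binds HER2 and lies beside ERBB2 in its amplicon, had 547 ± 22.4 for Control and 1300.2 ± 159.5 for DTP, but 149 ± 74.7 for DTEP and 121 ± 34.0 for LR. It rose in DTP (1.24, adjusted p 0.00357) and fell 8.70-fold in DTEP against DTP (-3.22, adjusted p 1.40e-06). GRB10 had 169 ± 1.97, 197 ± 14.5, 15.7 ± 10.9 and 22.7 ± 19.3 in the same order, 12.5-fold lower in DTEP than in DTP (-3.75, adjusted p 7.16e-05).

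SRC, a kinase that acts with EGFR and HER2, had 12.9 ± 0.557, 9.65 ± 0.715, 0.460 ± 0.351 and 0.125 ± 0.0692, a fall of 21.0-fold from DTP to DTEP (-2.89, adjusted p 6.76e-08). SHC2 had 5.94 ± 0.664, 11.5 ± 3.58, 0.693 ± 0.318 and 0.262 ± 0.199 (-2.86, adjusted p 4.39e-07). GAB1, GRB2 and HRAS were the 3 genes called higher in DTEP against DTP, and are named outside the rule for named genes. In LR against DTEP 0 of this list were called by limma, with 13 at an unadjusted p below 0.05 and 2 called by edgeR.

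All 17 genes listed as negative regulators of ERBB receptors were tested. The list includes USP8 and EPS15, for which that role is not settled. In DTP against Control 9 fell and 0 rose by limma's adjusted p, as did 9 and 0 at an unadjusted p below 0.05, where 28.8% of all genes fell and 25.2% rose. The median log2 change was -0.61 against -0.01 over all genes. In DTEP against DTP 12 rose and 0 fell (35.7% and 32.6% of all genes), with a median of 0.98 against 0.08. In DTEP against Control 5 rose and 1 fell (29.5% and 28.7% of all genes), with a median of 0.30 against 0.02. In LR against Control 11 rose and 0 fell (30.2% and 32.6% of all genes), with a median of 0.72 against -0.03. LR against DTEP had 0 past the adjusted p in limma, with 4 at an unadjusted p below 0.05, all higher.

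CBLC, a ubiquitin ligase of the CBL family, had 2 reads over the Control libraries, 0 in each DTP library and 18.7 to 26.1 normalised read counts in DTEP. Against the limit of 3 reads per DTP library, its mean was at least 133.1-fold higher in DTEP and at least 143.1-fold higher in LR (22.8 ± 5.72). It was called higher in DTEP against DTP (adjusted p 5.60e-09). SOCS4, a suppressor of EGFR signalling, was the gene called lower in DTP against Control, from 79.7 ± 11.5 to 18.8 ± 7.18 (log2 change -2.08, adjusted p 5.03e-05), and it had 72.9 ± 15.8 in DTEP and 97.1 ± 20.1 in LR.

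ERRFI1, which encodes the EGFR family inhibitor MIG6, had 36.5 ± 0.309 in Control and 19.5 ± 4.35 in DTP, then 102 ± 49.5 in DTEP and 76.6 ± 10.9 in LR. NEDD4, a ubiquitin ligase, had 44.4 ± 2.91, 20.0 ± 4.50, 102 ± 26.0 and 99.8 ± 23.1. Both fell in DTP (-0.89 for ERRFI1, adjusted p 0.0262, and -1.13 for NEDD4, adjusted p 0.00151) and were called higher in DTEP against DTP (2.23, adjusted p 3.93e-05, and 2.27, adjusted p 3.55e-06).

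The genes whose levels over the 12 libraries were most like those of each receptor were taken by Pearson r on log2(value + 1), as a description over libraries that share group means. For EGFR these were CALML3-AS1 (r 0.986), ACPP (0.984) and NNT (0.983). For ERBB3 they were SLC35E2 (0.986), NUMA1 (0.985) and PHF21A (0.983). ERBB4 had lower values, with SYNE3 (0.972), CCDC126 (0.968) and RNF139 (0.968).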

How the data were processed

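BT474 mRNA was sequenced in 12 libraries. The authors made stranded libraries, aligned them to hg38 using Rsubread, and counted reads over RefSeq gene models at default settings, which ignore strand. The submitters' processing notes name bcl2fastq, edgeR and hg38. The values deposited by the authors are a normalised signal per gene. Dividing by the value of 1 read gave whole reads for 100% of the 199680 values above 0 (tolerance 1e-06), and CPM with TMM factors recomputed in edgeR 4.0.16 from these reads equalled the deposited values within 5e-15.

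The fit used limma 3.58.1 under R 4.3.3, on log2(value + 1), as 1 model of group over all 12 libraries with a variance trend. It covered the 13794 genes that had 3 or more libraries with a value of 1 or more. Tests were two-sided, with Benjamini-Hochberg adjustment over all genes in each of 5 comparisons. The study also ran limma on logarithms with 1 added. Groups and replicate numbers came from the sample titles. The members and gene lists were chosen with earlier results of these data known. Named genes were the members, ERBB2, NRG2, NRG4, EPGN, the called genes of each list (at most 4, by largest absolute change) and, for each receptor, the 3 genes with the highest r.

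Alternatives were pseudocounts of 0.1 and 0.5, dropping the filter or asking for a mean of 5 or more, no trend, the 6 libraries compared alone, rescaling by median-of-ratios or TMM factors, a replicate block, tests on the recovered reads by edgeR (quasi-likelihood) or DESeq2 1.42.0, a log2 change beyond 1, and each library left out. The counts by adjusted p alone under these settings, folds with each library left out, and merged exon lengths, were added after seeing the data. The recovery of whole reads and the limma, edgeR and DESeq2 calls in DTP against Control were tested on simulated data, and the other steps were not. Coordinates and promoters are from RefSeq on GRCh38.p14 and transcript lengths from GENCODE MANE Select models, which are not the models the authors counted on. Replicates of a group differed by more than sampling noise.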

Additional observations from a re-analysis of the deposited data

How the results depend on the processing

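The count of members called in DTP against Control was 1 and became 2 with a pseudocount of 0.1, in edgeR and in DESeq2 (EGF besides EGFR), and 3 with a log2 change beyond 1. In DTEP against DTP it was 2 and became 6 under those first 3 settings (AREG, EGFR, HBEGF and TGFA besides) and 5 above 1. The genes called in all grew as well, from 2091 in limma to 3288 in edgeR and 3254 in DESeq2. In DTP against Control these were 678, 1270 and 1271. With 1 library left out the counts of members called were 1, 2 and 0 in the successive steps, 3 to 5 in DTEP against Control (3 without DTEP replicate 3) and 4 to 5 in LR against Control, which became 8 above 1. By the adjusted p alone, the 5 members in DTP against Control became 2 with a mean of at least 5 (fewer genes tested) and 8 in the fit of the 6 libraries compared, and ranged from 5 to 7 with 1 library left out. The 0 members in LR against DTEP ranged up to 2.

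For the lists, a log2 change beyond 1 in place of 2 gave for the shedding genes 4 in place of 1 in DTP against Control, 2 in place of 1 in DTEP against DTP and in DTEP against Control, and 5 in place of 0 in LR against Control, where edgeR gave 1. For the adaptors and kinases it gave 8, 16, 2, 12 and 15 in place of 0, 7, 0, 5 and 6 over the 5 comparisons, and edgeR gave 2 in LR against DTEP. For the negative regulators it gave 5, 7, 5 and 5 in place of 1, 3, 1 and 1, LR against DTEP remaining at 0. For members and lists alike, the share of all genes called beyond 1 was not counted.

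Changes of sign occurred only among changes that did not pass the adjusted p. In LR against DTEP, with 1 library left out, EGFR ranged from -0.39 to 0.17 (positive without DTEP replicate 3 or LR replicate 2), ERBB4 from -0.40 to 1.34 (negative without DTEP replicate 1 or LR replicate 1), EGF from -0.053 to 0.47 (negative without DTEP replicate 3) and BTC from -0.096 to 0.13 (negative without DTEP replicate 1 or LR replicate 1, and -0.0069 with a pseudocount of 0.1). In DTEP against DTP, BTC ranged from -0.25 to 0.034 (positive without DTP replicate 3) and EGF from -0.24 to 0.28 (negative without DTEP replicate 2, and -0.11 with a pseudocount of 0.1). Calls lost without 1 library were those of ERBB4 and AREG in DTEP against Control and of TGFA in LR against Control. Over the single members, 709 values kept their direction and side of the threshold and 27 became calls. The cause was not tested.

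Same-numbered libraries did not deviate together (r -0.44 to 0.36, with 2 of 18 pairs over 0.1), so the replicate block is given here only. With it, 1, 2, 0, 5 and 5 members were called in the 5 comparisons, as without it. Under median-of-ratios factors the median over all genes shifted by -0.12 in DTEP against DTP and by at most 0.06 in size elsewhere, with no call of a member changed. Depth limits EREG (at most 13 reads per library), HBEGF (3 to 34), BTC (3 to 43), EGF (1 to 56) and, in DTEP and LR, EGFR (2 to 24).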
